A study of Homo sapiens with 12 samples.

Results

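Peaks of 2 nuclease-dead proteins were examined at 9 genes of the bone-forming lineage in U2OS cells, a human osteosarcoma line. The 9 genes, chosen with earlier results of these data known, were taken from a list of osteoblast genes. They are among 19866 protein-coding genes placed on the hg38 chromosomes by RefSeq. They were 4 transcription factors (RUNX2, SP7, MSX2, DLX5), 1 membrane-anchored enzyme (ALPL) and 4 secreted matrix proteins (SPARC, BGLAP, IBSP, SPP1). Each gene was examined with 5 kb on either side, called its window here. All the cells were U2OS with a tet-on transgene for a catalytically dead, Flag-tagged protein, either REXO4-D386A, of the RNA exonuclease family, or RNaseH1-D210N, which binds RNA:DNA hybrids without cutting them. The study asked whether both proteins bind R-loops, structures made of an RNA:DNA hybrid and a single DNA strand left unpaired. The labels describe 12 libraries, 6 for each line. Cells were grown with doxycycline at 1 µg/ml or without it for about 60 h, and each condition had 2 Flag ChIP libraries and 1 input library. Whether each line is 1 clone is not stated in the sources used here. The analysed values were 1 peak list for each protein, with 54623 RNaseH1 peaks and 1460 REXO4 peaks. No value per library was analysed, so no value below has a replicate error. The sources used here do not give the libraries behind each list or their doxycycline condition.

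Osteoblasts arise from mesenchymal precursors through a chain of transcription factors. RUNX2 commits cells to the lineage and SP7, also called osterix, acts downstream of it, while the homeobox proteins MSX2 and DLX5 respond to BMP signals and act on bone genes. ALPL, the tissue-nonspecific alkaline phosphatase, removes pyrophosphate, an inhibitor of mineral growth. SPARC (osteonectin), BGLAP (osteocalcin), IBSP (bone sialoprotein) and SPP1 (osteopontin) are secreted into the matrix and bind mineral, calcium or collagen. R-loops form behind RNA polymerase and are well known at CpG-rich gene starts. ChIP peaks do not measure whether a gene is expressed, and expression was not analysed here.

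The RNaseH1 peaks were more numerous at the transcription factors and ALPL than at the matrix genes. All 4 transcription factors had a peak, with 15 peaks in all, and so did ALPL, with 5. Among the 4 matrix genes, SPARC and BGLAP had 1 peak each in the flank, and IBSP and SPP1 had 0. No matrix gene had a peak in its body, against 4 of 4 transcription factors, at SP7 by a peak with its summit 214 bp outside the gene. Per length of window, it was 5.14 peaks per 100 kb at the transcription factors, 6.30 at ALPL and 2.28 at the matrix genes. Over all protein-coding windows it was 3.10 pooled, with a median of 3.82 per gene. With 4 genes against 4 and 1 peak list, no test of the difference between transcription factors and matrix genes was made. In sum 7 of the 9 genes had an RNaseH1 peak, beside 82.1% of all protein-coding genes with the same window, so the count over all 9 genes is near the background, and a peak at a single transcription factor is what most genes show. In the gene body alone, 5 of the 9 had a peak, beside 76.6% of protein-coding genes of all lengths. Among protein-coding genes of like window length, a mean of 80.7% had a window peak for the transcription factors and 73.9% for the matrix genes. REXO4 had 0 peaks in the 9 windows, beside 6.16% of protein-coding genes with at least 1.

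The starts of 5 genes are shown as sequence, because they set starts under an RNaseH1 peak beside starts without one. Each run is RefSeq sequence of GRCh38.p14, 250 bases before to 50 bases after the annotated start, written 5′ to 3′ on the gene's own strand, which is the plus strand for all of them. Capitals mark CG dinucleotides. RefSeq gives RUNX2 a distal start, numbered 1, and a proximal start, numbered 2, which lie 93.9 kb apart. The distal start drives the isoform best known from bone, and the proximal start is used more widely. The start under a peak is RUNX2 start 2 (chr6:45422025-45422324), and RUNX2 start 1 (chr6:45328080-45328379) has none. MSX2 (chr5:174724332-174724631) is also under a peak. BGLAP (chr1:156241934-156242233), IBSP (chr4:87799304-87799603) and SPP1 (chr4:87975464-87975763) are not.
RUNX2 start 2: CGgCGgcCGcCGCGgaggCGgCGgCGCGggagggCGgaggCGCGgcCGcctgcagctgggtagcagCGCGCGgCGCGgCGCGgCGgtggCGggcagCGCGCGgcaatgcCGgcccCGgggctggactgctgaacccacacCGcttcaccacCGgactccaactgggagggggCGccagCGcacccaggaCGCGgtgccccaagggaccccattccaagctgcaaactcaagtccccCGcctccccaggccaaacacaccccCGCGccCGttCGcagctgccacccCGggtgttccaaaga
MSX2 start: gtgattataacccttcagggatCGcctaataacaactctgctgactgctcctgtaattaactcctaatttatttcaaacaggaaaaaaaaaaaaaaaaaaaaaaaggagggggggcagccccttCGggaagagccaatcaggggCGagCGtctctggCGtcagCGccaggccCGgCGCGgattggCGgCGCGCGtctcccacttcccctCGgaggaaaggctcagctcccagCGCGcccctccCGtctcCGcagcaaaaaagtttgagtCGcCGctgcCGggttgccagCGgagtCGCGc
RUNX2 start 1: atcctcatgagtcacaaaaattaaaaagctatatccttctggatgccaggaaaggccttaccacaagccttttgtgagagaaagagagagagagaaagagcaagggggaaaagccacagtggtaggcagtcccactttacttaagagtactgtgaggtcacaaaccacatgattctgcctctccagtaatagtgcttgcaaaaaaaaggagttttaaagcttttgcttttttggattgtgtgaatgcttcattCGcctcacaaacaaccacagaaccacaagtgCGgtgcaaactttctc
BGLAP start: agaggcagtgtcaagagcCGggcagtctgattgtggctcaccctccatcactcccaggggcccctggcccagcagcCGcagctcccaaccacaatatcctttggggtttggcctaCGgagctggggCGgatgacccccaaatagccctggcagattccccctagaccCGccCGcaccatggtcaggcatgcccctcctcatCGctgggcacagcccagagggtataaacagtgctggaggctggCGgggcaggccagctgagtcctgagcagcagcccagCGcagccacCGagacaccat
IBSP start: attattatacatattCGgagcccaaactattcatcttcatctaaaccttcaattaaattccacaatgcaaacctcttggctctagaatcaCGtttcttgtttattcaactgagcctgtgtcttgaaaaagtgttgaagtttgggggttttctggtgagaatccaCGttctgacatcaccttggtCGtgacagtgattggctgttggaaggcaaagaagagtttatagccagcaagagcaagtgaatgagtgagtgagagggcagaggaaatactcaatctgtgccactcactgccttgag
SPP1 start: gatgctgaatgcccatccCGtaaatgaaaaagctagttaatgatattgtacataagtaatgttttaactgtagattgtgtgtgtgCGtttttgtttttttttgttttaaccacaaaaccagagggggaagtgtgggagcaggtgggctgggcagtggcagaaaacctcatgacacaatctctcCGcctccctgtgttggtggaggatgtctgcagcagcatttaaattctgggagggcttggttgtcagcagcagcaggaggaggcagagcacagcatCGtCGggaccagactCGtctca
The RUNX2 start under a peak holds 39 CG dinucleotides, and the RUNX2 start without one holds 2. MSX2, under a peak, holds 24. The matrix gene starts without a peak hold 10 at BGLAP, 4 at IBSP and 6 at SPP1. Of the starts not shown, ALPL start 1 under a peak and SPARC without one hold 11 each. ALPL start 2, under a peak, holds 42, and ALPL start 3, without one, holds 9.

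RUNX2, the runt-domain factor of bone commitment, spans chr6:45328330-45551082 (222.8 kb) and held 6 RNaseH1 peaks, all inside the gene. The fold enrichment of a peak is the authors' value, fragments at the summit over the expected pileup with 1 added to each. Each interval given here is the 95% Poisson interval of the fragment count. It covers counting error of these fragments only and takes the expected pileup as exact, so error in the expected pileup is left out. Of the 6 peaks, 4 stood together within 3.99 kb at the proximal start, on 1.72% of the window. The first of these, chr6:45419508-45420090, had a fold of 7.29 (5.51 to 9.47) from 54 fragments against an expected 6.55, the highest of all 22 peaks at the 9 genes and at percentile 99.4 of the whole RNaseH1 list. Its summit lay 2519 bp upstream of the proximal start. The next, chr6:45420189-45420441, had a fold of 2.98 (1.97 to 4.34). The peak over the proximal start itself, chr6:45421593-45422462, had a fold of 3.12 (2.28 to 4.18) with its summit 347 bp upstream, and it also covered the start of the lncRNA gene LOC124901324, annotated on the opposite strand. The peak just downstream, chr6:45422583-45423499, had a fold of 3.29 (2.40 to 4.43) with its summit 503 bp into the gene. The strongest signal around the proximal start was thus upstream of the start and not on it, with an interval above those of the other 3 peaks.

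The other RUNX2 peaks lay far from the RUNX2 starts. One, chr6:45377362-45378576, had a fold of 3.94 (3.27 to 4.72) from 118 fragments, the most fragments of the 22 peaks, against an expected 29.2. It covered both annotated starts of SUPT3H, a gene on the opposite strand that starts inside RUNX2, at positions 45377934 and 45377662. It was 44.1 kb upstream of the proximal RUNX2 start, so by position this peak belongs to SUPT3H starts as much as to RUNX2. The last, chr6:45457895-45458252, was the least significant of the 22, with a fold of 2.36 (1.36 to 3.85), 14 fragments and q = 0.0471. The distal RUNX2 start had no RNaseH1 peak, and the nearest summit was 49.8 kb away, at SUPT3H.

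SP7, a zinc finger factor required for osteoblast formation, spans chr12:53326575-53344793 and had 3 peaks. The peak over its upper boundary, chr12:53344717-53345538, had a fold of 3.59 (2.67 to 4.72) from 49 fragments, with the summit 214 bp outside the gene. The widest of the 22 peaks, chr12:53324642-53326196 with 1555 bp, ended 379 bp below the lower boundary and had a fold of 3.71 (2.99 to 4.54) from 91 fragments. The last, chr12:53321222-53321859, had a fold of 3.43 (2.73 to 4.25) and covered the annotated start of the neighbour AAAS, which encodes a nuclear pore protein. The 3 folds lay within each other's intervals. Thus no peak was wholly inside SP7, and 1 of the 3 is at the start of another gene.

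MSX2, a homeobox gene of 6.32 kb at chr5:174724582-174730896, had 4 peaks in 16.3 kb, the densest of the 9 windows. The peak over its start, chr5:174724455-174725350, had a fold of 2.45 (1.90 to 3.10) from 67 fragments, with the summit 199 bp into the gene. The fold was highest 3352 bp before the gene, at chr5:174720923-174721230, with 3.63 (2.70 to 4.79) from 48 fragments. Beyond the end of the gene, chr5:174732097-174732427 had 2.32 (1.49 to 3.46) and chr5:174735322-174735902 had 2.995 (2.19 to 4.01). The peak at the start was thus among the lower of the 4 by fold while holding the most fragments, against an expected 26.8 there and 8.93 to 13.7 at the others. The intervals of the highest and the lowest of the 4 overlap.

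DLX5, a homeobox gene at chr7:97020396-97024831, had 2 weak peaks. One was inside the gene, chr7:97021621-97021915, with a fold of 2.57 (1.58 to 3.98) from 18 fragments. The other lay 3168 bp below it, chr7:97016854-97017228, with a fold of 2.67 (1.60 to 4.24) from 16 fragments. Their q of 0.00703 and 0.00780 put both among the weakest 14.2% of the RNaseH1 list, and neither boundary of DLX5 was under a peak.

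ALPL spans 69.4 kb at chr1:21508984-21578410 and held 5 peaks, all overlapping the gene. The widest, chr1:21508942-21509961 with 1020 bp, covered both of its first annotated starts and had a fold of 3.42 (2.43 to 4.68) from 37 fragments. The summit was 138 bp upstream of the second start, which is the GC-richest of the 10 member starts at 82.3% GC with 42 CG dinucleotides. The third annotated start, with 9 CG dinucleotides, had no peak, and the nearest summit was 7071 bp into the gene from it. The 4 peaks deeper in the gene had folds of 2.82, 3.68, 3.18 and 3.56, at 31.1, 49.4, 60.8 and 65.2 kb from the first start, each from 18 to 28 fragments. All 5 ALPL folds lay within each other's intervals.

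**Figure D1:**
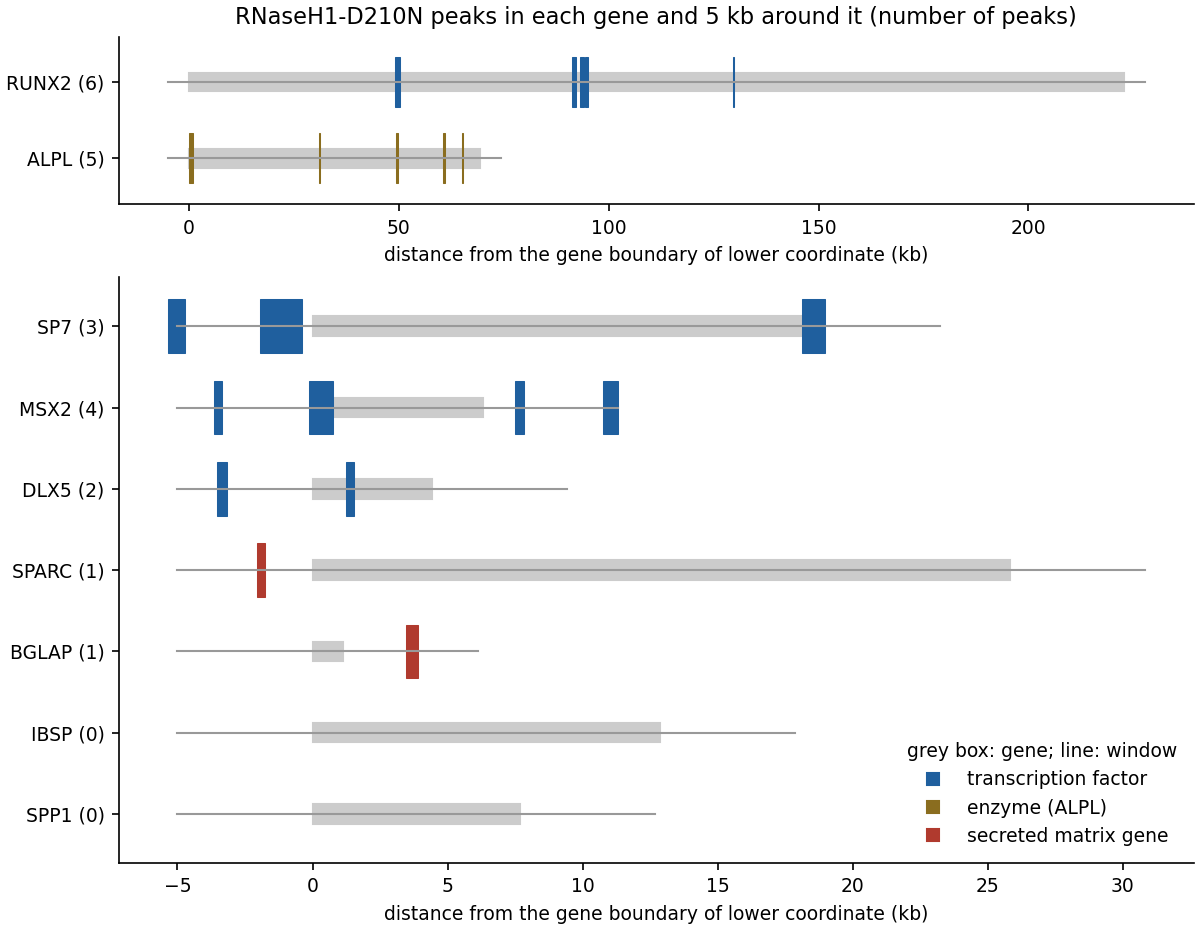
Position of every RNaseH1-D210N peak (coloured bars, drawn to scale with a thin outline) in the window of each gene, in kb from the gene boundary of lower coordinate, with the number of peaks in brackets. RUNX2 and ALPL share the upper axis. The 4 RUNX2 peaks near 91 to 95 kb surround the proximal start, and the gene bodies of all 4 matrix genes are empty.

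SPARC, a calcium- and collagen-binding glycoprotein of bone matrix, spans chr5:151661096-151686915 on the minus strand. Its only peak, chr5:151659023-151659334, lay 1762 bp beyond the end of the gene, with a fold of 3.68 (2.51 to 5.24) from 29 fragments. The nearest summit to the start of SPARC was 18106 bp upstream of it, with a fold of 2.71. The peak in the window of BGLAP, the gene of 1134 bp for osteocalcin at chr1:156242184-156243317, was chr1:156245642-156246088 with a fold of 2.998 (1.91 to 4.51) from 21 fragments. It lay 2325 bp beyond BGLAP and inside the neighbouring gene PAQR6. Both matrix gene peaks thus were outside the genes, and neither covered an annotated start.

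IBSP (chr4:87799554-87812435) and SPP1 (chr4:87975714-87983411) encode acidic sialoproteins of bone and lie in a cluster of mineralised-matrix genes on chromosome 4 with DSPP, DMP1 and MEPE. The nearest RNaseH1 peak to IBSP was 51.1 kb away, chr4:87863558-87863940, with a fold of 5.69 (3.76 to 8.29) at percentile 98.6 of the list, outside annotated genes. The nearest to SPP1 was 6831 bp before the gene, just outside the window, chr4:87968558-87968883, with a fold of 2.84 (1.58 to 4.80) from 12 fragments in the lncRNA gene LOC124900730. Farther before SPP1 in the same lncRNA gene, chr4:87965714-87966005 had a fold of 4.52 (2.88 to 6.80) from 21 fragments. Beside it, chr4:87966239-87966663 had 2.04 (1.25 to 3.16) from 18 fragments. From DSPP to SPP1, 374.9 kb held 6 RNaseH1 peaks (1.60 per 100 kb) and 0 REXO4 peaks. For all protein-coding windows pooled it was 3.10 RNaseH1 peaks per 100 kb. Those windows leave out most sequence between genes, which the DSPP to SPP1 stretch includes, so the rates are not like for like. Of the 5 genes in the cluster, DMP1 alone had a peak in its window, with a fold of 5.04 (3.14 to 7.73) from 19 fragments.

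**Figure D2:**
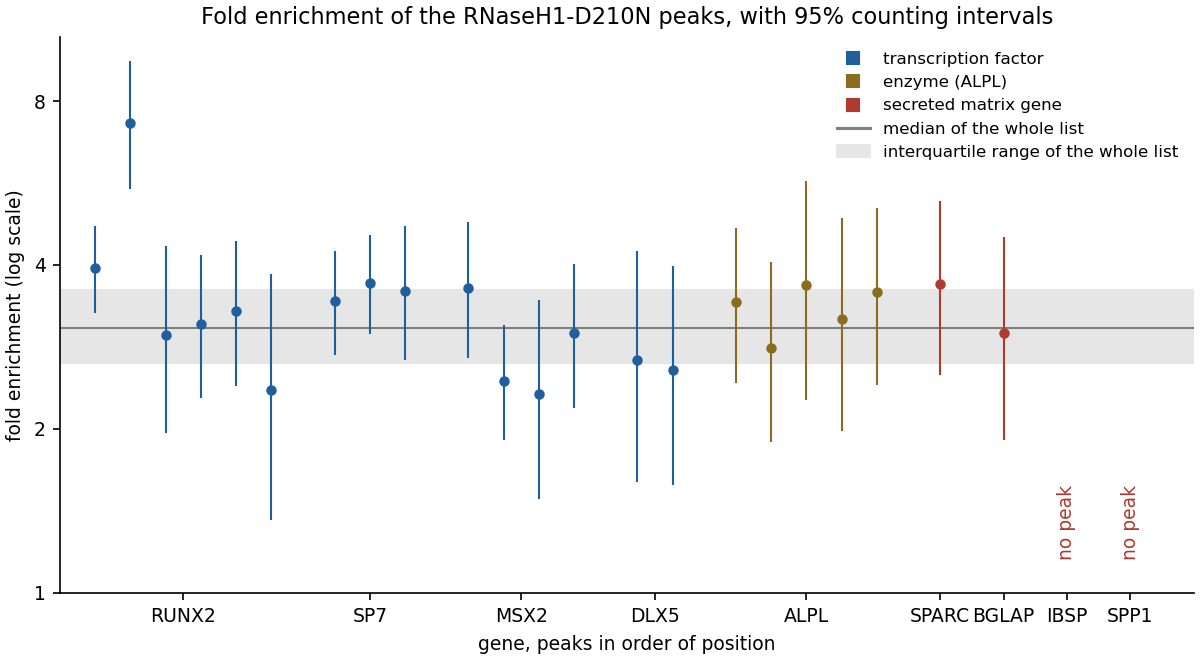
Fold enrichment on a log scale of the 22 RNaseH1-D210N peaks, grouped by gene, with 95% Poisson intervals of the fragment count. The grey line and band are the median (3.07) and interquartile range (2.64 to 3.60) of all 54623 peaks. One RUNX2 peak at 7.29 stands above the rest, and the peaks of SPARC and BGLAP lie among those of the transcription factors and ALPL.

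The 22 peaks had a median fold of 3.24, beside 3.07 for all RNaseH1 peaks, and ranged from 2.32 to 7.29. The interval held the list's median in 20 of the 22, and the other 2 were the RUNX2 peaks at 7.29 and 3.94, both above it. The median fold was 3.12 over the 15 peaks of the transcription factors, 3.42 over the 5 of ALPL and 3.34 over the 2 of the matrix genes. The median width of the 22 peaks was 499.5 bp, beside 365 bp for the list, and 13 of the 22 were wider than the list's median (10 of 15 at the transcription factors, 2 of 5 at ALPL, 1 of 2 at the matrix genes). Among them the 5 widest were at RUNX2, SP7, MSX2 and ALPL. Peaks rested on 14 to 118 fragments, so a single fold is known no better than to within its interval, which leaves out error in the expected pileup.

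Long genes meet more peaks, so each gene was also set beside protein-coding genes of like window length, in 10 classes of equal number. MSX2, with 4 peaks, was in a class with a median of 1, in which 9.01% of genes had as many or more. For ALPL, with 5 peaks against a class median of 2, it was 14.3%. RUNX2, with 6 against 4, had 28.4% of its class at or above it, SP7, with 3 against 2, had 30.3%, and DLX5, with 2 against 1, had 42.0%. Each of these 5 genes was above its class median, but none was beyond the range of many other genes. SPARC, with 1 peak against a median of 2, was below, and BGLAP was at its class median of 1. In the classes of IBSP and SPP1, 79.4% and 75.7% of genes had a peak, so genes without one are the minority there. By density the order was MSX2 (24.5 peaks per 100 kb), DLX5 (13.9), SP7 (10.6), BGLAP (8.98), ALPL (6.30), SPARC (2.79), RUNX2 (2.58), then IBSP and SPP1 at 0, against a median of 3.82 over protein-coding genes. The flanks make up most of a short gene's window, so BGLAP's density comes from 1 peak. The 3 shorter transcription factor genes SP7, MSX2 and DLX5 together held 9 peaks in 58.97 kb, and the 4 matrix genes 2 peaks in 87.5 kb. With RUNX2 included, the 4 transcription factors held 15 peaks in 291.7 kb. Of these 15 peaks 6 lay in the flanks, as did the 2 of the matrix genes.

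**Figure D3:**
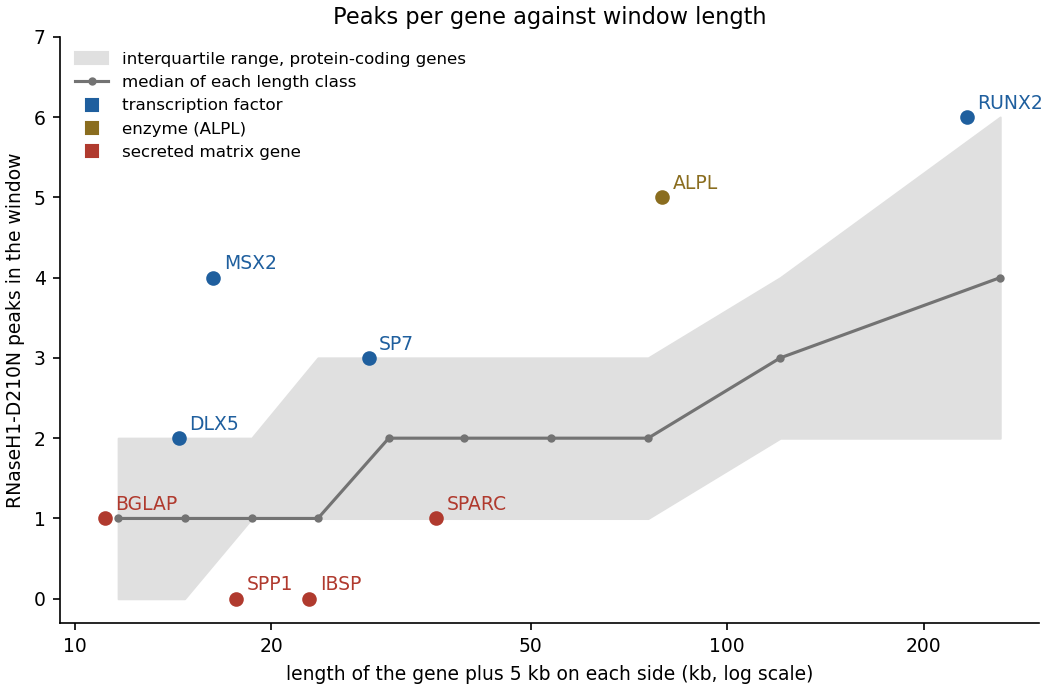
Number of RNaseH1-D210N peaks in each of the 9 windows against window length (log scale), with the median (line) and interquartile range (band) over protein-coding genes in 10 length classes. The 4 transcription factors and ALPL lie above the line, and no matrix gene does.

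Of the 4 starts under a peak, 3 were rich in CG dinucleotides and ALPL start 1 was not. RefSeq promoter sequence was available for 7 of the 9 genes, with 10 starts. No sequence was used for SP7 and DLX5. A peak lay over 4 of the 10 starts (RUNX2 start 2, MSX2, and ALPL starts 1 and 2), beside 44.5% of all 35116 promoters of the same length. In GC content these 4 had 76.0%, 57.0%, 59.7% and 82.3%, and they held 39, 24, 11 and 42 CG dinucleotides. The 6 without a peak had 2 to 11 CG dinucleotides. SPARC, at 61.3% GC, and BGLAP, at 64.7%, had a higher GC content than MSX2 and ALPL start 1. Their 11 and 10 CG dinucleotides were fewer than at MSX2 and about as many as at ALPL start 1, which had a peak. Among all promoters, those with an RNaseH1 peak had a median of 28 CG dinucleotides (interquartile range 21 to 35.2) and 67.3% GC, and those without had 4 (2 to 9) and 49.0%. Of promoters with 0 to 4 CG dinucleotides, the class of RUNX2 start 1 and IBSP, 1.07% had a peak. With 5 to 9, the class of SPP1 and ALPL start 3, it was 10.2%, and with 10 to 19, the class of SPARC, BGLAP and ALPL start 1, it was 50.7%. With 20 to 29, the class of MSX2, it was 82.0%, and with 30 or more, that of RUNX2 start 2 and ALPL start 2, it was 87.7%. For 7 of the 10 starts the presence or absence of a peak was thus what most promoters of that CG class showed, and in the class of SPARC, BGLAP and ALPL start 1 promoters were about evenly divided. Transcription through these starts was not analysed here, and the part of base composition in the difference was not tested.

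**Figure D4:**
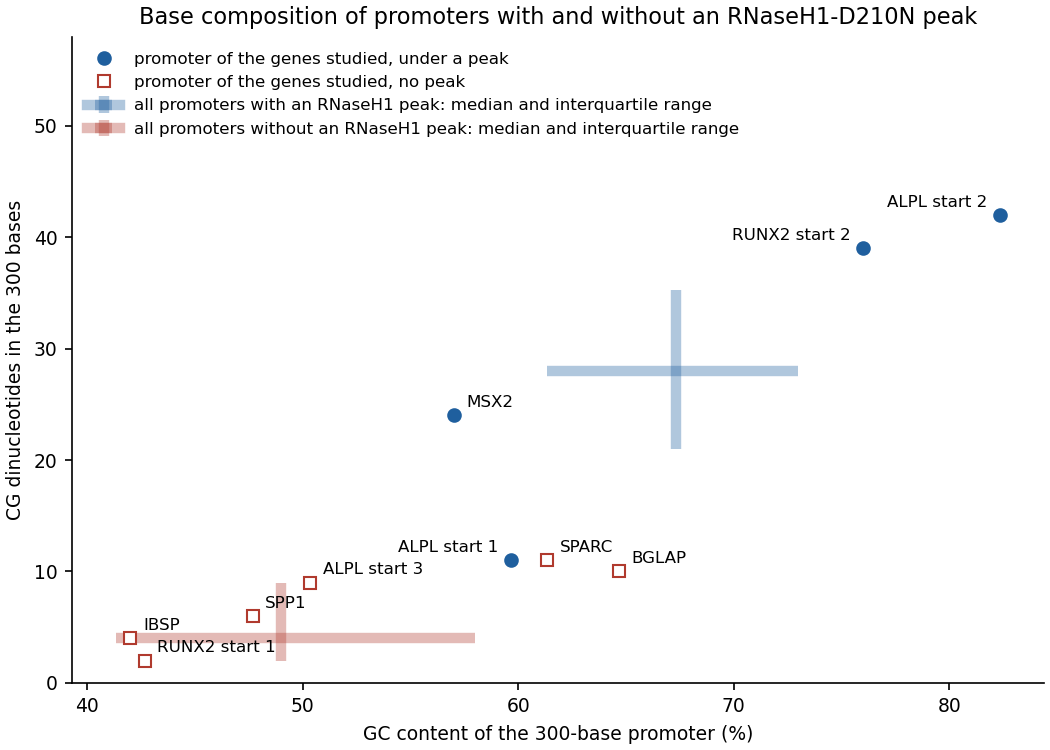
CG dinucleotides against GC content in the 300-base promoters of the 7 genes with RefSeq promoter sequence. Filled circles are starts under an RNaseH1-D210N peak and open squares are starts without one, and the crosses give the median and interquartile range of all promoters with (blue) and without (red) a peak. ALPL start 1 and SPARC have 11 CG dinucleotides each and differ in having a peak.

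The strand balance of G and C, which is often discussed for R-loops, did not follow the same order. The skew, (G − C)/(G + C) on the gene's strand, was -0.04 at both RUNX2 start 2 and MSX2, 0.13 at ALPL start 2 and 0.22 at ALPL start 1, all under a peak. Without a peak it was 0.22 at SPP1, 0.16 at SPARC, 0.08 at IBSP, 0.02 at RUNX2 start 1, -0.09 at BGLAP and -0.13 at ALPL start 3. Over all promoters the median was 0.01 both with and without a peak. The RUNX core motif ACCACA, searched on both strands, occurred 4 times at RUNX2 start 1, once at BGLAP and once at SPP1, and in 0 of the 4 starts under a peak. It occurs in 13.1% of all promoters, in 8.05% of those with an RNaseH1 peak and in 17.1% of those without. At 3 or more copies it occurs in 0.125% of all promoters.

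REXO4 peaks were far from most of the 9 genes. The nearest one was 13.8 kb from DLX5, chr7:97006096-97006579, in DLX6, the homeobox gene paired with DLX5, where the antisense-named lncRNA gene DLX6-AS1 also lies. It had a REXO4 fold of 3.25 (2.00 to 5.04) from 18 fragments, and over 286 bp it overlapped an RNaseH1 peak with a fold of 3.10 (1.82 to 4.98) in its own list. From the other genes the nearest REXO4 peak was 218.5 kb away at ALPL, 246.4 kb at BGLAP, 278.7 kb at SP7, 604.1 kb at SPARC and more than 2 Mb at MSX2, RUNX2, SPP1 and IBSP. None of the 22 RNaseH1 peaks overlapped a REXO4 peak. A count of 0 among 9 genes says little where 6.16% of protein-coding genes have a REXO4 peak.

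In the wider bone gene lists, 50 of 59 genes (84.7%) had an RNaseH1 peak in the window, near the 82.1% of all protein-coding genes, with 12 of 12 transcription factors and 6 of 11 matrix genes among them, a difference that was not tested. Among the other bone transcription factors, high folds were found at MSX1 (6.28, 5.53 to 7.10), a homeobox paralogue of MSX2, and at RUNX1 (4.75), and FOSL2 had 4.56. CBFB, the partner that RUNX proteins need to bind DNA well, had 3.73. All 16 BMP ligands, receptors, SMADs and antagonists had one, led by the ligand BMP6 (5.18, 3.42 to 7.55), the inhibitory SMAD6 (4.91) and the ligands BMP7 (4.69) and BMP4 (4.49). Of 9 Wnt genes 8 did, led by the co-receptor LRP6 (5.04), the ligand WNT10B (4.23), the co-receptor LRP5 (3.76) and the antagonist DKK1 (3.64), while SOST, the osteocyte inhibitor of Wnt signals, had none. LRP5 had 18 peaks in 160.9 kb, the most of any gene of these lists. Among 7 mineralisation genes 6 had a peak, with the phosphate transporter SLC20A1 at 10.7 (9.66 to 11.8), above every peak of the 9 genes. The secretory kinase FAM20C followed at 6.89, ENPP1, which makes pyrophosphate, at 5.00 and the pyrophosphate exporter ANKH at 4.14. PHEX had none.

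The 6 of 11 other matrix genes with a peak were DMP1 (5.04), fibronectin FN1 (4.32), BGN (3.76), LOX (3.05), THBS1 (2.65) and POSTN (2.60), each with 1 peak. MEPE, DSPP, DCN, OMD and MGP had none. MEPE and DSPP lie in the chromosome 4 cluster with IBSP and SPP1, so the counts of the matrix lists are not independent. The length classes of the 11 other matrix genes averaged 82.7% of genes with a peak, and those of the 12 transcription factors 80.04%. The lists thus had similar backgrounds for genes of their length. Of 4 osteoclast-coupling genes, CSF1 (2.52) and PTH1R (2.77) had a peak, and TNFSF11 and TNFRSF11B had none. Genes of other mesenchymal lineages had a peak at 14 of 18: 6 of 6 for cartilage, led by ACAN (4.00), MATN3 (3.25), COMP (3.05) and MATN1 (2.72), 4 of 6 for fat, led by PPARG (4.56), CEBPA (3.88), ADIPOQ (3.64) and LEP (2.97), and 4 of 6 for muscle (MYF6, 5.03; DES, 4.06; MYOD1, 2.77; ACTA1, 2.52). PLIN1, FABP4, MYOG and MYF5 had none. The length classes averaged 71.8% of genes with a peak over these 18 genes, 82.4% for cartilage, 76.2% for fat and 56.9% for muscle. The 6 cartilage genes also encode secreted matrix proteins, and all had a peak, which went against the order seen in the bone lists. Of the transcription factors among these genes, PPARG, CEBPA, MYOD1 and MYF6 had a peak, and MYOG and MYF5 had none. In the length class of MYOG and MYF5, 53.2% of genes had a peak. Peaks were not limited to bone genes. REXO4 peaks lay at 6 of the 59 other bone genes (RUNX3, DLX6, SMAD7, LRP5, AXIN2 and TCF7), all with an RNaseH1 peak in the window too, and at none of the 18 others. Among all protein-coding genes 6.16% had a REXO4 peak and 82.1% an RNaseH1 peak, so these counts say little.

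**Figure D5:**
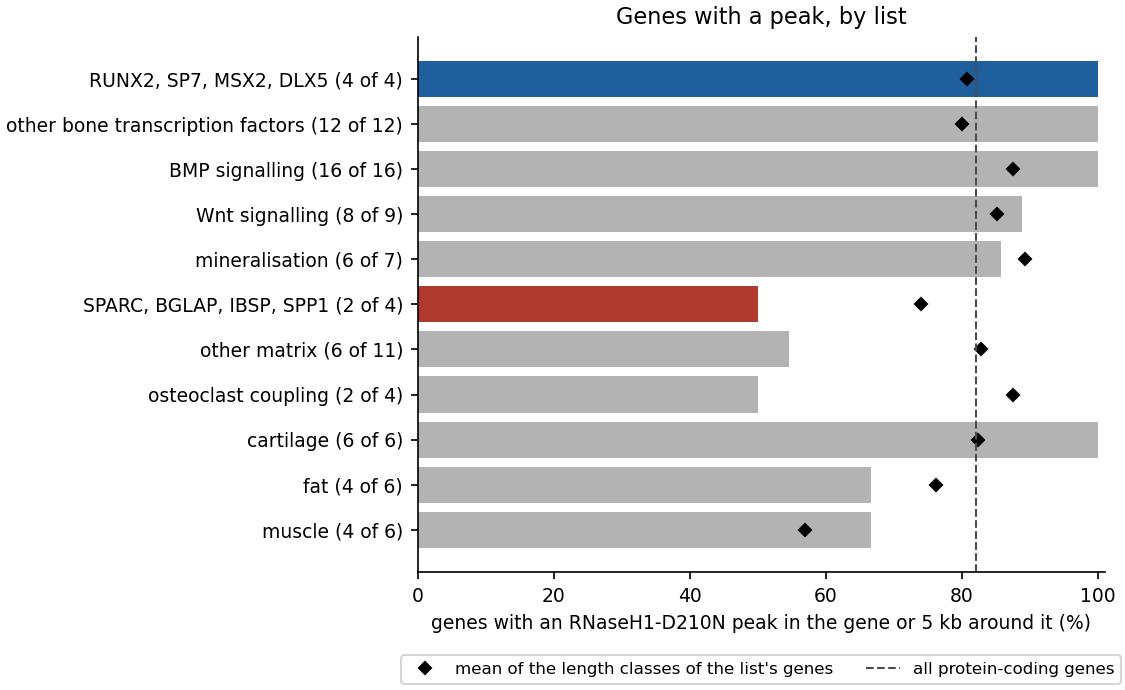
Percent of genes with an RNaseH1-D210N peak in the gene or 5 kb around it, for the transcription factors (blue), the matrix genes (red) and other lists (grey), with counts in brackets. The dashed line is all protein-coding genes (82.1%) and diamonds are the mean share in the length classes of each list's genes. Both lists of bone transcription factors reach 100% and the bone matrix lists stand at 50% and 54.5%, while the cartilage list, also of matrix genes, reaches 100%. IBSP, SPP1, MEPE and DSPP, all without a peak, lie in the same chromosome 4 cluster.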

How the data were processed

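Flag ChIP-seq of U2OS cells was analysed from 2 deposited peak lists in hg38 coordinates. MACS2 2.1.0.20150731 was the peak caller, and HISAT2 2.2.1, SAMtools 1.17, Trim Galore 0.6.10, deepTools 3.5.1 and Cufflinks are also listed, per the submitters' processing notes. The sources used here do not give the control, pooling or threshold. The largest q was 0.198 for RNaseH1 and 0.179 for REXO4. The deposited fold enrichment, a ratio with 1 added to each term, the deposited −log10 p and −log10 q, and the summit positions are the authors' values. The authors' deposited peak score was not used.

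Gene positions and promoters came from RefSeq tables of GRCh38.p14. Of 59792 genes, 58961 were kept, and 831 without a position in chromosome order were left out. A peak counted when at least 1 bp lay in a gene or 5 kb around it. Fragments were recovered from fold and p as the whole number that fits the Poisson tail within 0.05 fragments, which worked for all 22 peaks. The folds' 95% intervals are exact Poisson intervals of the fragment count, with the expected pileup held fixed. Overlap counting and recovery were tested on simulated data. No significance test was made, since each protein has 1 list. The 9 genes, the lists and the naming rule (all 9 genes with every peak, overlapping neighbours, up to 4 genes by fold in each other list and the genes without a peak) were chosen with earlier results of these data known. A gene that the rule selects is not reported here. CBFB, THBS1, POSTN and the genes with REXO4 peaks were named after their values were seen. Alternatives were other windows, summits, stricter q and a larger overlap. The software was pandas 2.3.3, SciPy 1.17.1, NumPy 2.4.6 and matplotlib 3.10.9 under Python 3.11.15.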

Additional observations from a re-analysis of the deposited data

How the results depend on the processing

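Of 63 values, 9 results under 7 alternatives, 52 stayed within the limits set: a factor of 1.5 for counts, and the 95% counting interval for the median fold and for the percent of protein-coding genes. With the gene body only, the 22 peaks became 14, the matrix genes with a peak fell from 2 to 0, and 76.6% of protein-coding genes had one. With 1 kb on each side the matrix genes were again 0 and the background 78.5%. With 10 kb the background was 85.1%, and 3 of 4 matrix genes had a peak, SPP1 among them. With q of 0.01 or less the background was 80.6%. With q of 1e-05 or less, 13 peaks, 1 matrix gene (SPARC), 8 of 18 genes of other mesenchymal lineages and 70.7% of protein-coding genes were left, and the transcription factors with a peak fell to 3, without DLX5. The transcription factors stayed at 4 of 4 under the other 6 alternatives, and REXO4 had 0 peaks in the 9 windows under all 7. No paired analysis was possible because each protein has 1 peak list without values per replicate, so leaving out a replicate could not be run either. Depth limits single peaks: the RUNX2 peak of 14 fragments has a fold of 2.36 with an interval of 1.36 to 3.85.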
